A study of Mus musculus with 4 samples.

Results

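The enzymes that turn the open chain of squalene epoxide into lanosterol and then into cholesterol were read by 15 probe sets for 9 genes, out of 22626 probe sets on an Affymetrix mouse array. They were chosen by gene symbol alone: every probe set whose single symbol in the platform annotation, older and newer names counted, was Lss, Cyp51, Tm7sf2, Msmo1, Nsdhl, Hsd17b7, Ebp, Sc5d or Dhcr7. Liver RNA came from adult male C57BL6 mice, all of which had received an adenovirus and were killed on day 6 afterwards. In the control group, with 2 arrays, the virus carried green fluorescent protein (GFP), and in the lipin group, also with 2 arrays, it carried the beta form of mouse lipin 1, a phosphatidate phosphatase and nuclear coactivator. The comparison asks which liver transcripts differ between lipin 1beta overexpression and the viral control, and no group without virus is part of it. The sources used here do not say which promoter drove the insert or whether each array was a different mouse, so p-values measure only how far these samples scatter, and that scatter may be technical.

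Cholesterol synthesis is one of the main tasks of the hepatocyte. Acetyl-CoA is built up through mevalonate to squalene, and the enzymes described here then close the sterol rings, strip methyl groups from carbons 4 and 14 and shift and reduce double bonds until cholesterol is reached. The genes of the whole pathway are textbook targets of SREBP-2, a membrane-bound transcription factor that is released when sterols in the endoplasmic reticulum run low and that binds promoters together with NF-Y and Sp1.

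The promoters of 4 members are shown because these genes carried the main contrasts: Cyp51 and Nsdhl were lower on both lipin arrays, Ebp was higher on both, and Msmo1 was lowest on lipin replicate 1 and highest on lipin replicate 2. Each run holds 250 bases before and 50 after a RefSeq transcript start on build GRCm38.p6, written 5′ to 3′ on the gene's strand: chr5:4104648-4104947 (minus) for Cyp51, chrX:72918271-72918570 (plus) for Nsdhl, chrX:8193463-8193762 (minus) for Ebp and chr8:64733529-64733828 (minus) for Msmo1. Capitals mark matches, on either strand, to CCAAT (the NF-Y box, ATTGG when read on the other strand), to GGGCGG (the GC box bound by Sp1), to CACNCCA (a short form of the sterol regulatory element) and to the looser ATCACNNCA, which was added after the promoters had been seen.
Cyp51 promoter: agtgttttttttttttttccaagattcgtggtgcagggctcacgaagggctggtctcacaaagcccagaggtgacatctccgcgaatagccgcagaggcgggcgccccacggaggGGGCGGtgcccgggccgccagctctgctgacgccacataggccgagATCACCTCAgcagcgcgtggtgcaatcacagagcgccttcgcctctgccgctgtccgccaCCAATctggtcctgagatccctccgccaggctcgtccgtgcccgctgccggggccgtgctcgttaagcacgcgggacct
Nsdhl promoter: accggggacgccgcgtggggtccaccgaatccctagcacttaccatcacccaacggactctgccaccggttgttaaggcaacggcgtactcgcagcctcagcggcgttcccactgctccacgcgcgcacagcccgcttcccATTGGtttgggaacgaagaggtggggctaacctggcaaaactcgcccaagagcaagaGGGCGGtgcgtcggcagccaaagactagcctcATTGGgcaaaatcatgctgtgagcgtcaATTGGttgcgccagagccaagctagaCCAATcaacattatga
Ebp promoter: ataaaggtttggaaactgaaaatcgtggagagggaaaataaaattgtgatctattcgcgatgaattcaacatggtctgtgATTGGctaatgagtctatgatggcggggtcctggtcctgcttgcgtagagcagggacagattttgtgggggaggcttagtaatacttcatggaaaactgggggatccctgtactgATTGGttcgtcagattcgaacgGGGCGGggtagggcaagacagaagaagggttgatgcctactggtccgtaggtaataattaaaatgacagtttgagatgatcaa
Msmo1 promoter: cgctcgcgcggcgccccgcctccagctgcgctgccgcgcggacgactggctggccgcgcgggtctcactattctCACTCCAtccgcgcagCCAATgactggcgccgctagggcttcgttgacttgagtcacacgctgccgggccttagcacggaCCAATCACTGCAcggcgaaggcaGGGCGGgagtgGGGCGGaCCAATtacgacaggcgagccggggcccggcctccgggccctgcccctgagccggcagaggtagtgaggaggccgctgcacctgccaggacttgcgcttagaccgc

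All 9 genes matched the RefSeq promoter table, with 11 windows in total because Dhcr7 has 3 transcript starts. CCAAT occurred in 9 of the 11 windows, with at least 1 such window for each gene, against 37.4% of all 32851 windows of this length. GGGCGG occurred in 10 of the 11 windows, again covering each gene, against 35.7% of all windows. The full element TCACNCCAC occurred in 0 of the 11 windows and in 1.24% of all windows, and CACNCCA in 1 of the 11, that of Msmo1, and in 18.4% of all. The looser ATCACNNCA matched in Cyp51, 89 bases before the start, and in Msmo1, where the match overlaps a CCAAT box, against 2.77% of all windows. Member windows were between 45.3% and 71.0% G and C, with a median of 52.7% over all windows. The same boxes were thus present in promoters of genes that were lower, higher or overlapping on the lipin arrays, and a match is a description of letters, not evidence of binding.

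Signals are MAS5 intensities in arbitrary units, scaled by the authors so that the 2% trimmed mean was the same on all arrays, between 1500.7 and 1500.8. The probes themselves limit what can be compared: signals of one probe set are set only against the same probe set on other arrays. GFP replicate 2 stood apart: its correlation with the rest averaged 0.731, where the others averaged 0.781 to 0.793. Its actin control read 4.22 times brighter at the 3′ end than at the 5′ end, where the others read 1.77 to 2.86. For the Gapdh control the gap was smaller, 2.01 where the others read 1.52 to 1.78. High ratios can come from degraded RNA, which was not tested. Its median signal was also the highest, 746 where the others had 582 to 675. The labels give polyA RNA for lipin replicate 2 and total RNA for the other 3 arrays. Lpin1 itself read 2730 and 1430 in GFP and 2261 and 6719 in lipin replicates 1 and 2 on one probe set, and 7082 and 4632 against 3854 and 11087 on the other, so the library labelled lipin replicate 1 lay within or below the control range. Directions given below rest on the labels. Hepatocyte markers were present on every array (Alb, albumin, between 571407 and 1069100).

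**Figure D1:**
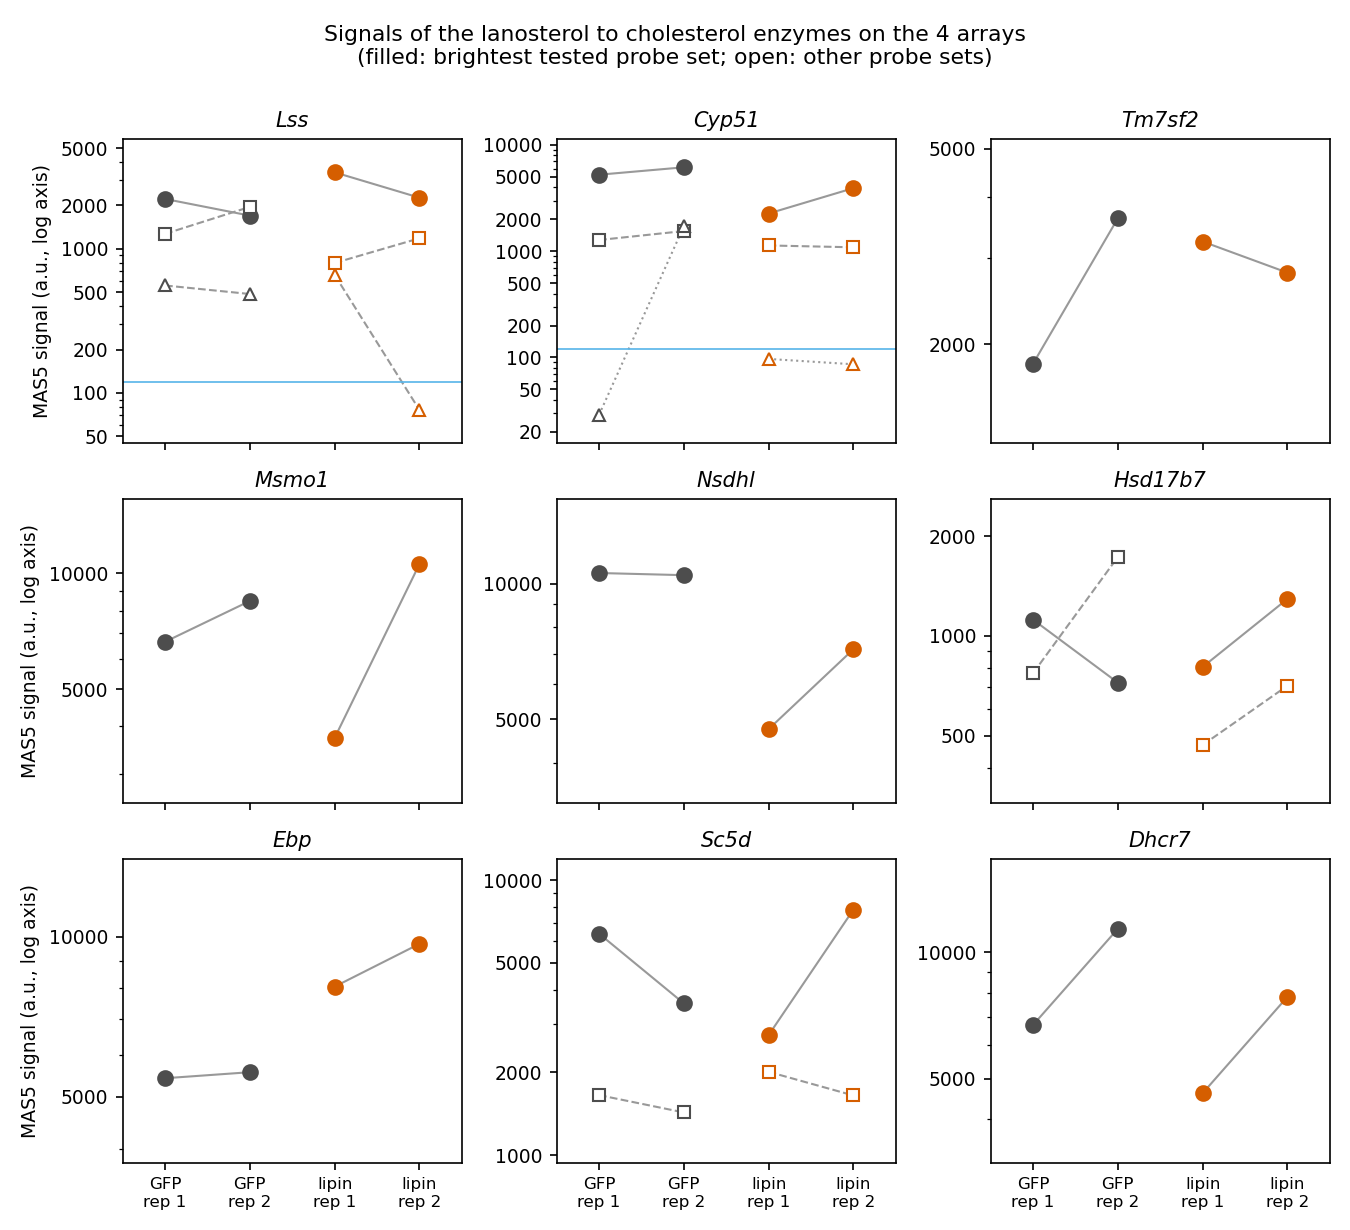
MAS5 signal (arbitrary units, log axis) of all 15 probe sets on the 4 arrays, GFP in grey and lipin in orange. Filled circles are the brightest tested probe set of a gene, open squares and triangles its other probe sets, dotted lines the untested one, and the blue line the floor of 119.5 under which signals were raised for the test. Cyp51, Nsdhl, Ebp and, by a small margin, Lss separate the groups on their brightest probe set, whereas Msmo1, Sc5d and Dhcr7 are low on lipin replicate 1 and not on lipin replicate 2.

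Over the 9 enzymes the arrays labelled lipin showed no common direction. Cyp51 and Nsdhl were 1.91-fold and 1.80-fold lower than GFP, Ebp was 1.61-fold higher, and the remaining genes differed by less than 1.5-fold on their brightest probe set. Of the 15 probe sets 14 were bright enough to test, with at least 1 for each gene. With limma, 0 of the 14 passed at an adjusted p under 0.05, where 0% of all 13576 tested probe sets passed in either direction, and the adjusted p of the 14 ran from 0.962 to 0.996. At an unadjusted p under 0.05, 2 of the 14 were lower, the brightest probe sets of Nsdhl and Cyp51, and 0 higher, against 1.92% lower and 2.47% higher over all probe sets tested. The smallest two-sided p that exact permutation of 2 against 2 arrays allows for one gene is 0.333.

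Counted by gene on the brightest tested probe set, both lipin arrays lay below both GFP arrays for 2 of 9 genes, Cyp51 and Nsdhl, and above both for 2, Lss and Ebp. Over all 8493 tested genes these shares were 16.0% below and 17.3% above, so the members' counts, 2 of 9 each way, are near the background. The even split holds for the brightest probe sets only. Of the 14 tested probe sets 5 were below and 2 above. The 5 take in both tested probe sets of Cyp51. They also take in the second ones of Lss, whose brightest was above, and of Hsd17b7, whose brightest overlapped. No share over all probe sets was computed for that count, so it cannot be read as an excess. Without lipin replicate 2 the genes below GFP were 5, Msmo1, Sc5d and Dhcr7 being added, against 30.5% of all genes. Without GFP replicate 1 they were 4, Tm7sf2 and Dhcr7 being added, against 39.9%. Without lipin replicate 1 the genes above GFP were 5, Msmo1, Hsd17b7 and Sc5d being added, against 30.1%. Leaving out GFP replicate 1, Hsd17b7 joined Lss and Ebp, which gave 3 genes above, against 33.9% of all genes. Leaving out GFP replicate 2, Tm7sf2 joined Lss and Ebp, which also gave 3, against 36.2%. The median log2 difference of the 9 genes was -0.05, beside 0.00 over all tested genes, and 5 of the 9 lay below 0, beside 49.9% of all. That median was -0.80 without lipin replicate 2 and 0.22 without lipin replicate 1, and leaving out GFP replicate 1 or GFP replicate 2 gave -0.26 or -0.13. It also rests on taking the brightest probe set: with all 4 arrays it was -0.36 when a gene's tested probe sets were averaged and -0.26 without probe sets named _s_at or _x_at, with 6 of 9 genes below 0 each time.

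**Figure D2:**
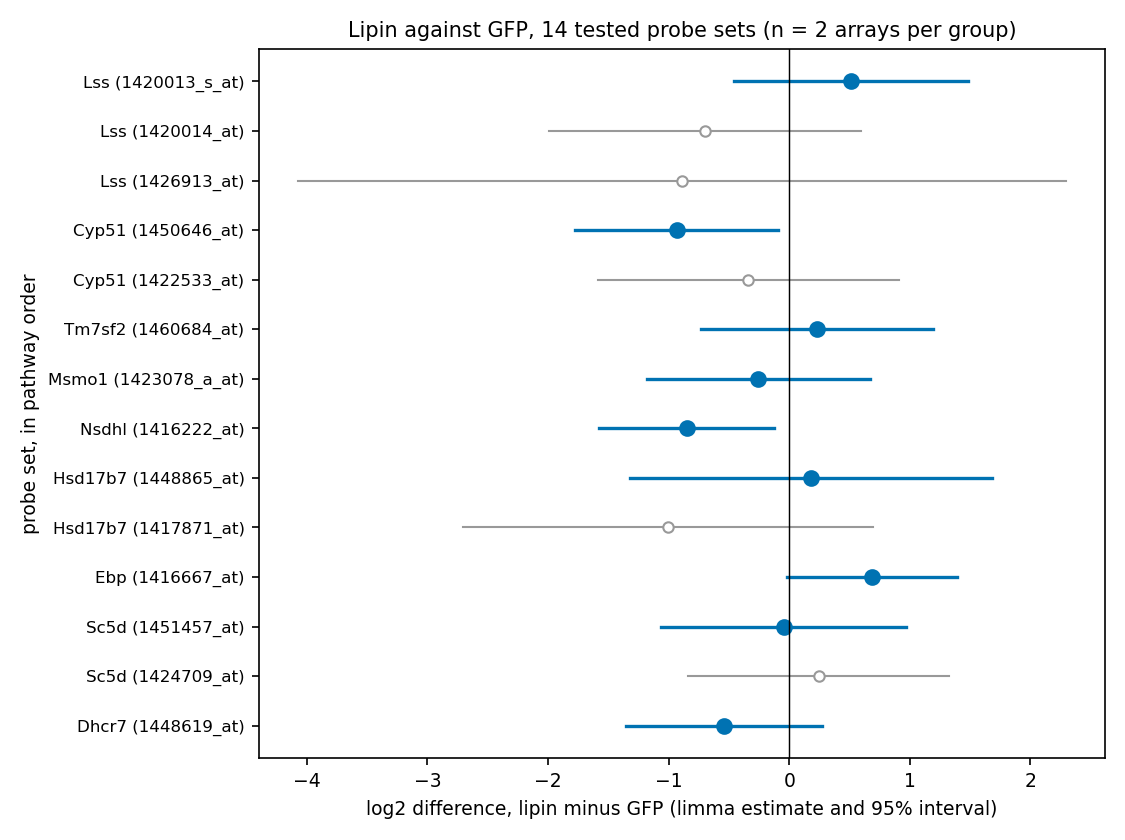
Log2 difference, lipin minus GFP, of the 14 tested probe sets in pathway order, with limma's 95% interval (n = 2 arrays per group). Large filled points are the brightest probe set of a gene and small open points its others. The intervals of Cyp51 and Nsdhl on their brightest probe sets lie below 0 and the other 12 span it.

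The pathway segment opens with Lss, lanosterol synthase, which folds squalene epoxide into the first sterol. Its brightest probe set (1420013_s_at) read 2217 and 1699 in GFP and 3392 and 2263 in lipin, which is 0.51 ± 0.46 on the log2 scale (limma standard error, here and below; n = 2 arrays per group). Both lipin arrays were above both GFP arrays, but lipin replicate 2 was above GFP replicate 1 by only a small margin, and that separation was lost after median centring. The second probe set (1420014_at) read the other way, at 1270 and 1953 in GFP and 797 and 1183 in lipin, a log2 difference of -0.70 ± 0.61. The dimmest (1426913_at) read 557 and 486 in GFP and 659 and 76.3 in lipin, with a floored log2 difference of -0.89 ± 1.49 that turned to 0.34 without lipin replicate 2. The probe sets of Lss thus disagreed in sign, and the annotation ties an accession only to the dimmest of them. Lss is therefore given by its values, with no direction for the gene.

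Cyp51, lanosterol demethylase, is the cytochrome P450 that removes the methyl group at carbon 14 and is the family member shared by fungi and animals that azole drugs target. Its brightest probe set (1450646_at) read 5252 and 6167 in GFP and 2265 and 3925 in lipin. Both lipin arrays were below both GFP arrays, with lipin replicate 1 lowest, and the log2 difference was -0.93 ± 0.39 (95% interval -1.77 to -0.09; limma adjusted p = 0.962). Leaving out lipin replicate 2 gave -1.33 and leaving out lipin replicate 1 gave -0.54. The second probe set (1422533_at) read 1276 and 1549 in GFP and 1134 and 1089 in lipin, the same order with a smaller difference of -0.34 ± 0.58. The third (1422534_at) was the untested one, with 28.8 in GFP replicate 1, 96.9 and 86.3 in lipin and 1715 in GFP replicate 2. Its geometric mean after flooring was 233, under the 373 required, while the dimmest Lss probe set was just above, at 382.

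Tm7sf2 encodes a C14 sterol reductase, which saturates the double bond that Cyp51 leaves behind. It read 1826 and 3610 in GFP and 3239 and 2799 in lipin. Both lipin arrays fell between the GFP arrays, which were themselves 1.98-fold apart. The log2 difference was 0.23 ± 0.45, with a 95% interval of -0.73 to 1.19, and leaving out GFP replicate 1 or GFP replicate 2 gave -0.26 or 0.72. Lbr, the lamin B receptor, catalyses the same reduction in the nuclear envelope and read 1344 and 1517 in GFP and 1524 and 1719 in lipin, a log2 difference of 0.18 ± 0.53.

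The methyl groups at carbon 4 are removed by a complex of Msmo1, Nsdhl and Hsd17b7, held together by the scaffold protein Erg28. The 95% intervals of the 3 enzymes overlapped, and no test compared them with each other. Nsdhl, the decarboxylating dehydrogenase, read 10568 and 10452 in GFP and 4757 and 7157 in lipin. The GFP arrays differed by only 1.01-fold, both lipin arrays were below them, and the log2 difference was -0.85 ± 0.34 (95% interval -1.57 to -0.12; limma adjusted p = 0.962). It stayed between -1.14 and -0.55 when single arrays were left out.

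Msmo1, the methyl oxidase that acts first in the complex, read 6636 and 8476 in GFP and 3728 and 10569 in lipin. Lipin replicate 1 was the lowest array and lipin replicate 2 the highest, 2.83-fold apart. The log2 difference between groups was -0.26 ± 0.43, with a 95% interval of -1.18 to 0.67. It was 0.49 without lipin replicate 1 and -1.01 without lipin replicate 2.

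Hsd17b7, the ketoreductase of the complex, was read by probe sets that went opposite ways. The brighter (1448865_at) read 1120 and 723 in GFP and 805 and 1293 in lipin, an overlap with a log2 difference of 0.18 ± 0.70 that turned to -0.13 or -0.16 when GFP replicate 2 or lipin replicate 2 was left out. The other (1417871_at) read 771 and 1731 in GFP and 468 and 707 in lipin, both lipin arrays below both GFP arrays, with a difference of -1.01 ± 0.80. The latter was -0.42 without GFP replicate 2. On both probe sets lipin replicate 1 was lower than lipin replicate 2, and the GFP arrays changed places between them. Erg28 read 3416 and 2450 in GFP and 4254 and 3634 in lipin, a log2 difference of 0.44 ± 0.40, or 0.20 without GFP replicate 2.

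Ebp, the emopamil-binding protein, is the isomerase that moves the ring double bond after demethylation. It read 5420 and 5563 in GFP and 8054 and 9690 in lipin. Both lipin arrays were above both GFP arrays, which differed by 1.03-fold, and the log2 difference was 0.69 ± 0.33 (95% interval -0.02 to 1.39; limma adjusted p = 0.962). It stayed between 0.55 and 0.82 when single arrays were left out. Ebp and Nsdhl were the members with the closest GFP arrays, and they stood on opposite sides.

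Sc5d, lathosterol desaturase, introduces a further ring double bond and so makes dehydrocholesterol, the substrate of Dhcr7. Its brighter probe set (1451457_at) read 6389 and 3564 in GFP and 2732 and 7810 in lipin. Both extremes were lipin arrays, 2.86-fold apart, and the group difference was -0.05 ± 0.48 on the log2 scale, with a 95% interval of -1.06 to 0.97. It was -0.80 without lipin replicate 2 and 0.71 without lipin replicate 1. The dimmer probe set (1424709_at) had a narrow range, with 1653 and 1430 in GFP and 2009 and 1648 in lipin, a log2 difference of 0.24 ± 0.51. It placed lipin replicate 1 highest, where the brighter probe set placed it lowest.

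Dhcr7, dehydrocholesterol reductase, makes cholesterol from dehydrocholesterol, which is also the precursor of vitamin D. It read 6709 and 11375 in GFP and 4613 and 7828 in lipin. Lipin replicate 1 was lowest and GFP replicate 2 highest, and the groups overlapped because lipin replicate 2 exceeded GFP replicate 1. The log2 difference was -0.54 ± 0.38, with a 95% interval of -1.35 to 0.27. It was -0.92 without lipin replicate 2, -0.16 without lipin replicate 1 and -0.16 without GFP replicate 2.

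**Figure D3:**
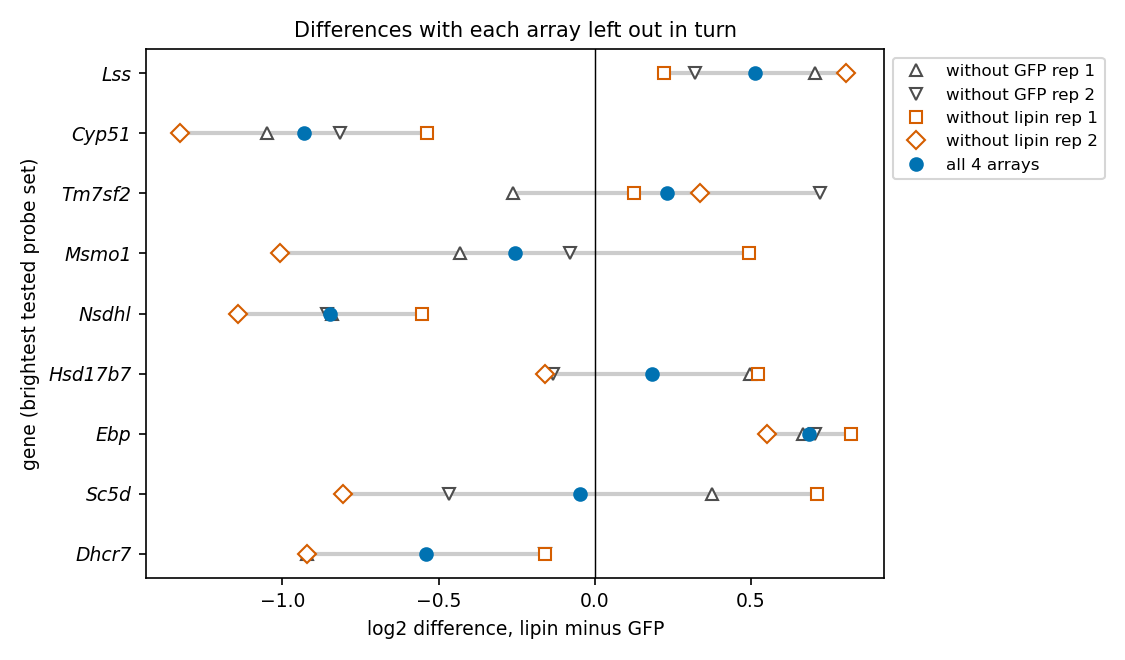
Log2 difference, lipin minus GFP, of the brightest tested probe set of each gene with all 4 arrays (filled circle) and with each array left out (open symbols). Cyp51, Nsdhl and Dhcr7 stay below 0 and Lss and Ebp above it, while Tm7sf2, Msmo1, Hsd17b7 and Sc5d cross 0.

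The arrays labelled lipin differed from each other more than the groups did for 5 of the 9 genes, which is near the 56.8% of all tested genes. Lipin replicate 1 was below lipin replicate 2 for 7 of 9 genes, beside 47.3% of all tested genes, and by 1.5 times or more for 6 of 9, beside 20.6%. It was the lowest of the 4 arrays for 5 of 9 genes (Cyp51, Msmo1, Nsdhl, Sc5d and Dhcr7), beside 22.2% of all. These counts were chosen after the values had been seen and carry no test. Against the mean of the GFP arrays, the median of the 9 genes was -0.80 on the log2 scale in lipin replicate 1 and 0.22 in lipin replicate 2, beside 0.08 and 0.02 over all tested genes. Replicate 2 is the array with the polyA label and the higher Lpin1 signals, and the 3′ over 5′ actin ratio was 2.85 in replicate 1 and 2.86 in replicate 2. RNA type, Lpin1 signal and replicate cannot be told apart here.

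The summed signal of the 6 hepatocyte markers was 1446930 and 2925170 in GFP and 1993340 and 2380870 in lipin, and the lowest array was GFP replicate 1 for 5 of the 6 and lipin replicate 1 for none. Lipin replicate 1 was below lipin replicate 2 for 6 of 6 hepatocyte markers, by a median of 0.66 on the log2 scale. The same median was 0.68 for the 9 enzymes and -0.05 over all tested genes. The GFP arrays were unlike this. There the median of replicate 2 minus replicate 1 was 1.00 for the hepatocyte markers, 0.04 for the 9 enzymes and 0.13 over all tested genes. The markers thus shared the enzymes' gap between the lipin arrays but not their closeness between the GFP arrays, and the cause of either was not tested. The 7 macrophage markers summed to 44353 and 26894 in GFP and 42100 and 28783 in lipin, with both lipin arrays higher for 1 gene, and the 4 endothelial markers to 7719 and 11890 and to 8730 and 10160. Sums of the 5 T and NK cell markers were 2762 and 3428 in GFP and 2731 and 2283 in lipin, and those of the 5 stellate cell and fibroblast markers 6576 and 7255 against 5588 and 5871, the sums that did not overlap between groups. The T and NK cell sums parted only narrowly, 2762 in GFP replicate 1 against 2731 in lipin replicate 1. In each of these lists only 3 of the 5 markers were bright enough to test. Single genes with both lipin arrays below both GFP arrays numbered 1 of the 3 tested in each, beside 16.0% of all tested genes. For 1 of the 3 tested stellate cell and fibroblast markers both were above, beside 17.3%. The 4 cholangiocyte markers summed to 726 and 2409 in GFP and 1116 and 1754 in lipin. No marker was listed at 0. In whole liver, fewer cells of a type and less RNA per cell cannot be told apart, and the part of cell makeup in the members' values was not tested.

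**Figure D4:**
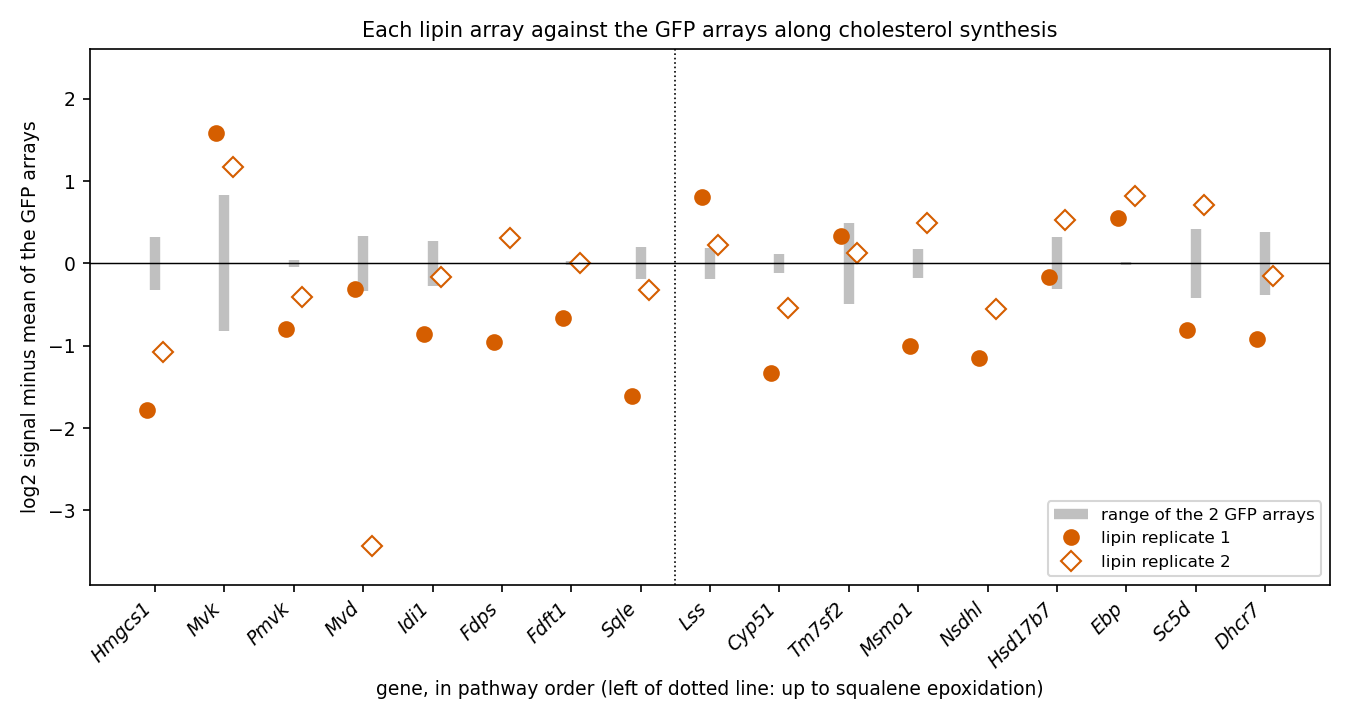
Log2 signal of each lipin array minus the mean of the GFP arrays, for 8 genes up to squalene epoxidation (left of the dotted line) and the 9 genes from Lss on, on the brightest tested probe set; grey bars show the range of the 2 GFP arrays. Lipin replicate 1 (filled) lies below lipin replicate 2 (open) for 6 of the 8 genes on the left and 7 of the 9 on the right.

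The preceding segment, from acetyl-CoA to squalene epoxide, gives the context in which the members stand. Of 10 listed genes 8 were tested, the others not being analysed here, and 0 passed. Their median log2 difference was -0.56, and it was -0.24 without lipin replicate 1 and -0.83 without lipin replicate 2. Of the 8, 7 lay below 0, beside 49.9% of all tested genes. Both lipin arrays were below GFP for 3 and above for 1, beside 16.0% and 17.3% of all, and lipin replicate 1 was the lowest array for 6, beside 22.2%. Sqle, squalene epoxidase, which supplies Lss, read 3403 and 4461 in GFP and 1272 and 3121 in lipin, a log2 difference of -0.97 ± 0.48 that was -0.32 without lipin replicate 1 and -1.61 without lipin replicate 2. As for Cyp51 and Dhcr7, GFP replicate 2 was its highest array and lipin replicate 1 its lowest. Hmgcs1, the cytosolic HMG-CoA synthase, read 54507 and 35024 in GFP and 12693 and 20741 in lipin (log2 -1.43 ± 0.36, limma adjusted p = 0.962). Mvk, mevalonate kinase, read 443 and 1391 against 2346 and 1767 (1.38 ± 0.66), and leaving out GFP replicate 1 or GFP replicate 2 gave 0.55 or 2.20. Mvd, which makes isopentenyl pyrophosphate, read 1026 and 1633 against 1042 and 29.0 (-1.88 ± 1.05), a difference set by lipin replicate 2, which was under the floor, and it was -0.31 without that array and -3.44 without lipin replicate 1. Whether the segments before and after Lss differ from each other was not tested.

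Sterol demethylation and desaturation draw electrons from cytochrome b5 and related proteins, listed together with other genes that act after lanosterol. Of 7 listed, 5 were tested and 0 passed, with a median log2 difference of 0.18 that ran from 0.09 to 0.33 with an array left out. Of the 5, 2 lay below 0, and lipin replicate 1 was the lowest array for none. Cyb5r3, cytochrome b5 reductase, read 19435 and 14512 in GFP and 19318 and 25314 in lipin (0.40 ± 0.33, or 0.19 without GFP replicate 2), and its other 3 tested probe sets ran from -1.19 to 0.42.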

How the data were processed

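The deposited values are linear MAS5 intensity signals, 1 per probe set and array, made by the authors per the submitters' processing notes. For version, scaling target and genome build, the sources used here give nothing. MAS5 subtracts mismatch signals, which leaves dim probe sets noisy, and no detection calls were used. Of 22690 probe sets, 64 controls were left out. Signals under 119.5 (20th percentile) were set to it before taking log2; the 13576 probe sets whose mean reached the 40th percentile were tested by group with limma 3.58.1 in R 4.3.3 (eBayes with an intensity trend; 2 residual and 12.7 prior degrees of freedom; two-sided; Benjamini-Hochberg over every tested probe set). The fit was tested on simulated data whose added differences were larger than any of the members. Detection of differences as small as theirs was not tested. Errors are limma's standard errors. A gene was represented by its brightest tested probe set. Names came from the platform annotation (20380 probe sets with 1 symbol, 691 with several, 1555 not listed), updated by Entrez identifier, and promoters from RefSeq (GRCm38.p6).

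The replicate numbers give no pairing in the labels. Alternatives covered normalization, floor, filter, prior, replicate block, array left out and choice of probe set. Members and lists were chosen with earlier results of these data known. Named are all probe sets of the members, Lpin1, and of each list the up to 3 genes (4 in the mevalonate list) with the smallest p. The number of arrays limits precision.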

Additional observations from a re-analysis of the deposited data

How the results depend on the processing

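With all 4 arrays, no member gene passed in any of the 11 alternatives, and the lowest adjusted p of a member over all alternatives was 0.421, with the replicate block. Of 99 values of single genes under these alternatives 95 kept their direction. The floor, filter, prior and replicate block settings gave the same log2 differences as the main fit, so agreement there says nothing about stability. Only normalization and the choice of probe set moved the values, and the 4 reversals came from the choice of probe set. Lss was -0.70 without probe sets named _s_at or _x_at. Averaging each gene's probe sets, Lss was -0.36, Hsd17b7 -0.41 and Sc5d 0.10. Of 36 values with an array left out 30 kept theirs. The others came from 4 genes, whose lowest and highest values with an array left out were -0.26 and 0.72 for Tm7sf2, -1.01 and 0.49 for Msmo1, -0.16 and 0.52 for Hsd17b7 and -0.80 and 0.71 for Sc5d. The cause of these reversals was not tested, beyond the choice of probe set or array itself.

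The number of probe sets called over the whole array was 0, and it ran from 0 to 13 with an array left out. The replicate block called 52 (34 higher, 18 lower), 0 of them the brightest probe set of a member, at infinite prior degrees of freedom, where a gene's spread comes from the intensity trend alone. Over 13576 probe sets, the difference of replicate 1 from replicate 2 in GFP correlated at 0.03 with that in lipin. The members' median ran from -0.80 to 0.22 with an array left out. With an array left out, genes whose remaining lipin arrays lay below the remaining GFP arrays numbered 2 to 5, against 30% to 39.9% of all tested genes. Those above numbered 2 to 5, against 30.1% to 36.2%. With all 4 arrays, 1 was above after median centring, against 16.7%. These alternatives were added after the data had been seen. The missing detection calls leave signal over background unknown for each probe set.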

Other observations

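Genes that sense sterols or follow SREBP-2 were listed beside the enzymes. Of 12 listed 8 were tested and 0 passed, with a median log2 difference of -0.13 that was -0.47 without GFP replicate 1 and turned to 0.02 without GFP replicate 2. Both lipin arrays were below GFP for 3 and above for 1, beside 16.0% and 17.3% of all tested genes. Insig2, which holds the SREBP escort protein in the endoplasmic reticulum, read 6414 and 7595 in GFP and 3541 and 2830 in lipin, which is -1.14 ± 0.36 on the log2 scale (adjusted p = 0.962 by limma). Its other probe sets read 5276 and 6081 against 1837 and 2499, and 2528 and 5232 against 1974 and 1921, so all 3 had both lipin arrays below both GFP arrays. Unlike Msmo1 and Sc5d, Insig2 was low on both lipin arrays; that contrast was not tested. Npc2, a lysosomal cholesterol carrier, differed by -0.59 ± 0.31 by its brighter probe set and by -0.01 by the dimmer, and Npc1, its membrane partner, 0.61 ± 0.46, or 0.21 without GFP replicate 2.

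Of 11 listed genes of cholesterol use and export 9 were tested and 0 passed, with a median log2 difference of 0.26. That median turned to -0.33 without lipin replicate 2 and was 0.70 without lipin replicate 1, while leaving out GFP replicate 1 or GFP replicate 2 gave 0.10 or 0.60. Abcg5, a subunit of the canalicular sterol exporter, read 1148 and 1484 in GFP and 2782 and 4542 in lipin (1.45 ± 0.47, limma adjusted p = 0.962). Lcat, which esterifies cholesterol in plasma lipoproteins, read 6320 and 6796 against 10203 and 11608 (0.73 ± 0.32). Cyp8b1, the sterol hydroxylase that makes cholic acid, read 13033 and 20284 against 9231 and 11065 (-0.69 ± 0.33), or -0.37 without GFP replicate 2. Lipin replicate 1 was below lipin replicate 2 for 9 of the 9 tested genes of this list, beside 47.3% of all tested genes, and it was the lowest array for 3, beside 22.2%.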
